A study of Homo sapiens with 4 samples.

Results

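The nuclear genes of the respiratory chain were examined in J.gamma1 cells, a PLCG1-deficient clone derived from Jurkat, a line of human T-cell acute lymphoblastic leukaemia. Members were the protein-coding genes whose symbol begins with NDUF, SDHA, SDHB, SDHC, SDHD, UQCR or ATP5 or is COX followed by a digit, together with CYC1 and CYCS. This gave 114 of the 64252 genes in the count table, by a rule that reads no measured value. The 4 RNA-seq libraries came from cells cultured for 48 h, 2 of them with 10 µM FB23-2 and 2 with vehicle (DMSO below 0.1%). The compound inhibits FTO, which strips methyl groups from adenosines in RNA, and the design asks how the transcripts of these leukaemic cells differ after exposure to it. According to the protocol the replicates are biological and independent, but all are of the same line, so they carry no variation between patients or between lines.

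The respiratory chain passes electrons from NADH and succinate to oxygen across complexes I to IV of the inner mitochondrial membrane. Complexes I, III and IV pump protons out of the matrix, and complex V, the ATP synthase, lets them back in to make ATP. Most subunits are encoded in the nucleus and a small set in mitochondrial DNA, and dedicated assembly factors, which are not part of the finished enzyme, insert haem, copper, iron-sulphur clusters and flavin or join modules together. Proliferating leukaemic T cells use the chain for ATP and also to regenerate the oxidised cofactors needed for nucleotide and aspartate synthesis.

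Libraries held 37804516 and 33983246 counts with FB23-2 and 24615359 and 34897961 in control, so that 3 counts, the limit that a count of 0 allows, corresponded to between 0.0784 and 0.124 CPM, the counts scaled to library size. FTO itself, the target of the compound, stood at 62.8 and 60.7 CPM with FB23-2 and 55.9 CPM in each control library, and was not called (edgeR adjusted p = 0.0737). An inhibitor of the protein need not alter its transcript, so this is no check of the labels. The line was T-cell-like in all libraries: the summed level of 14 T cell markers was 1749 to 1827 CPM with FB23-2 and 2289 to 2315 CPM in control. Among these markers 9 were called lower and 1, TRAC, higher, beside 20.3% and 21.8% of all tested genes. Of the B cell markers, PAX5 was at or near 0 and CD79A, the receptor signalling chain, lay between 38.9 and 44.5 CPM. The 5 natural killer markers summed to 2.27 to 3.02 CPM with FB23-2 and 1.36 to 1.45 CPM in control: NCAM1, at 1.86 and 2.53 against 1.29 and 1.31 CPM, was the 1 tested and was not called, and KLRF1 was at 0 in every library. The 5 myeloid markers summed to 1.81 to 2.43 CPM and 1.71 to 2.49 CPM. The part of these marker differences in the results below was not tested. In bulk RNA, fewer cells with a transcript and less of it in each cell cannot be told apart.

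Promoter sequences are shown first for a few members that the results return to. They carry short motifs known from respiratory genes: that of NRF1 (GCGCA, any base, then GCGC), a nuclear respiratory factor named for its role in such genes, that of ETS factors such as GABPA (CCGGAAGT), and the cyclic AMP response element (TGACGTCA). ATP5MC1, COX17 and NDUFA12 are shown as unbroken stretches upstream of the annotated exons. Short windows of SDHA and SDHD show a repeat and a pair of neighbouring motifs. Each is written 5′ to 3′ on the strand of its gene, with the motifs in capitals, from RefSeq on GRCh38.p14.
ATP5MC1, lower with FB23-2, 200 to 23 bases before its start, chr17:48892587-48892764, plus strand: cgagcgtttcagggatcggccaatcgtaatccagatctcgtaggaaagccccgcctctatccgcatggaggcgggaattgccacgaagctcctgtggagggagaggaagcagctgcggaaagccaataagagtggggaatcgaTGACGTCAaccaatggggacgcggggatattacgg
COX17, lower, 200 to 49 bases before its start, chr3:119677455-119677606, minus strand: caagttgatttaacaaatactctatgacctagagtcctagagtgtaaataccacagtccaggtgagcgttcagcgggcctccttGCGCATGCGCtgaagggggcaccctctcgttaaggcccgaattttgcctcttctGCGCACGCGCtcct
NDUFA12, higher, 200 to 74 bases before its start, chr12:95003771-95003897, minus strand: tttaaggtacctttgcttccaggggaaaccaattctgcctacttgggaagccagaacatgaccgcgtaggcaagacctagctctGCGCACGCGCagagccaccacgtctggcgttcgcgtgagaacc
SDHA, lower, motif beginning 166 bases before its start, chr5:218144-218173, plus strand: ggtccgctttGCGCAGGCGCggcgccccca
SDHA, motif beginning 117 bases before, chr5:218193-218222, plus strand: gtggcatggtGCGCAGGCGCgatgtccccc
SDHA, motif beginning 68 bases before, chr5:218242-218271, plus strand: ccggcgtggtGCGCAGGCGCggtatccccc
SDHA, motif beginning 19 bases before, chr5:218291-218320, plus strand: ccggtgtggtGCGCAGGCGCagtctgcgca
SDHD, higher, NRF1 motif beginning 110 bases before its start, chr11:112086753-112086782, plus strand: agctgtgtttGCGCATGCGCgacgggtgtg
SDHD, ETS motif read on the opposite strand, beginning 78 bases before, chr11:112086784-112086813, plus strand: accgcctctcgACTTCCGGttcacccagca

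The sequences show that members called in opposite directions carry the same motif letters. COX17 and SDHA, which fell, and NDUFA12 and SDHD, which rose, all hold the NRF1 motif, although the calls of SDHA and SDHD ended in 6 and 7 of 10 alternative fits. The matches of SDHA repeat 4 times at a spacing of 49 bases. RefSeq windows of 300 bases (250 before the start and 50 after) were matched for 91 members, giving 113 windows, since some genes have more than 1 start. On either strand, the NRF1 motif was in 20.4% of them, against 5.78% of all 35116 windows and 9.56% of the windows of tested genes. ETS motifs were in 14.2% of member windows and 6.97% of those of tested genes, and the response element in 4.42% and 2.69%. A further motif of respiratory promoters, that of YY1 (AAGATGGC), was in 14.2% and 4.41%, whereas the E-box (CACGTG) read by MYC was in 7.96% and 9.29%. Among members, the NRF1 motif was in 20.8% of the 53 windows of genes that fell and in 18.4% of the 49 windows of genes that were not called. The other motifs were in smaller shares of the windows of genes that fell than of those not called: YY1 in 11.3% and 20.4%, ETS in 11.3% and 16.3%, the response element in 3.77% and 6.12%, and the E-box in 7.55% and 10.2%. These differences were not tested. Windows rather than genes were counted: the 53 windows came from 39 genes and the 49 from 43. The 2 sets thus differ in windows per gene, and whether this alters the shares was not tested. The 6 windows of genes that rose held the NRF1 motif 2 times. No motif overlapped another in the letters printed.

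Of the 114 members, 106 passed the filter on low counts and were tested. With FB23-2, 48 were called lower and 5 higher at an adjusted p of 0.05, and 53 were not called. Lower calls thus made up 45.3% of tested members against a background of 20.3% of all 18817 tested genes, and higher calls 4.72% against 21.8%, with 42.1% of all tested genes called in either direction. The number of higher calls depended on the processing: it was 10 with library size alone (background 24.6%) and 9 with GC and length trends removed (background 20.3%), while lower calls numbered 44 in each. Changes were small. The median log2 fold change of the tested members was -0.20, beside 0.00 over all tested genes, and the median size of change in either direction was 0.25 beside 0.34. A negative log2 fold change was seen in 73.6% of members and 49.8% of all tested genes. Groups did not overlap for 81 members, 65 lower and 16 higher, or 76.4% of those tested, against 70.8% of all tested genes. Summed over members, levels were 9078 and 8604 CPM with FB23-2 and 10414 and 9927 CPM in control, 13.1% lower in the mean of the treated libraries.

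**Figure D1:**
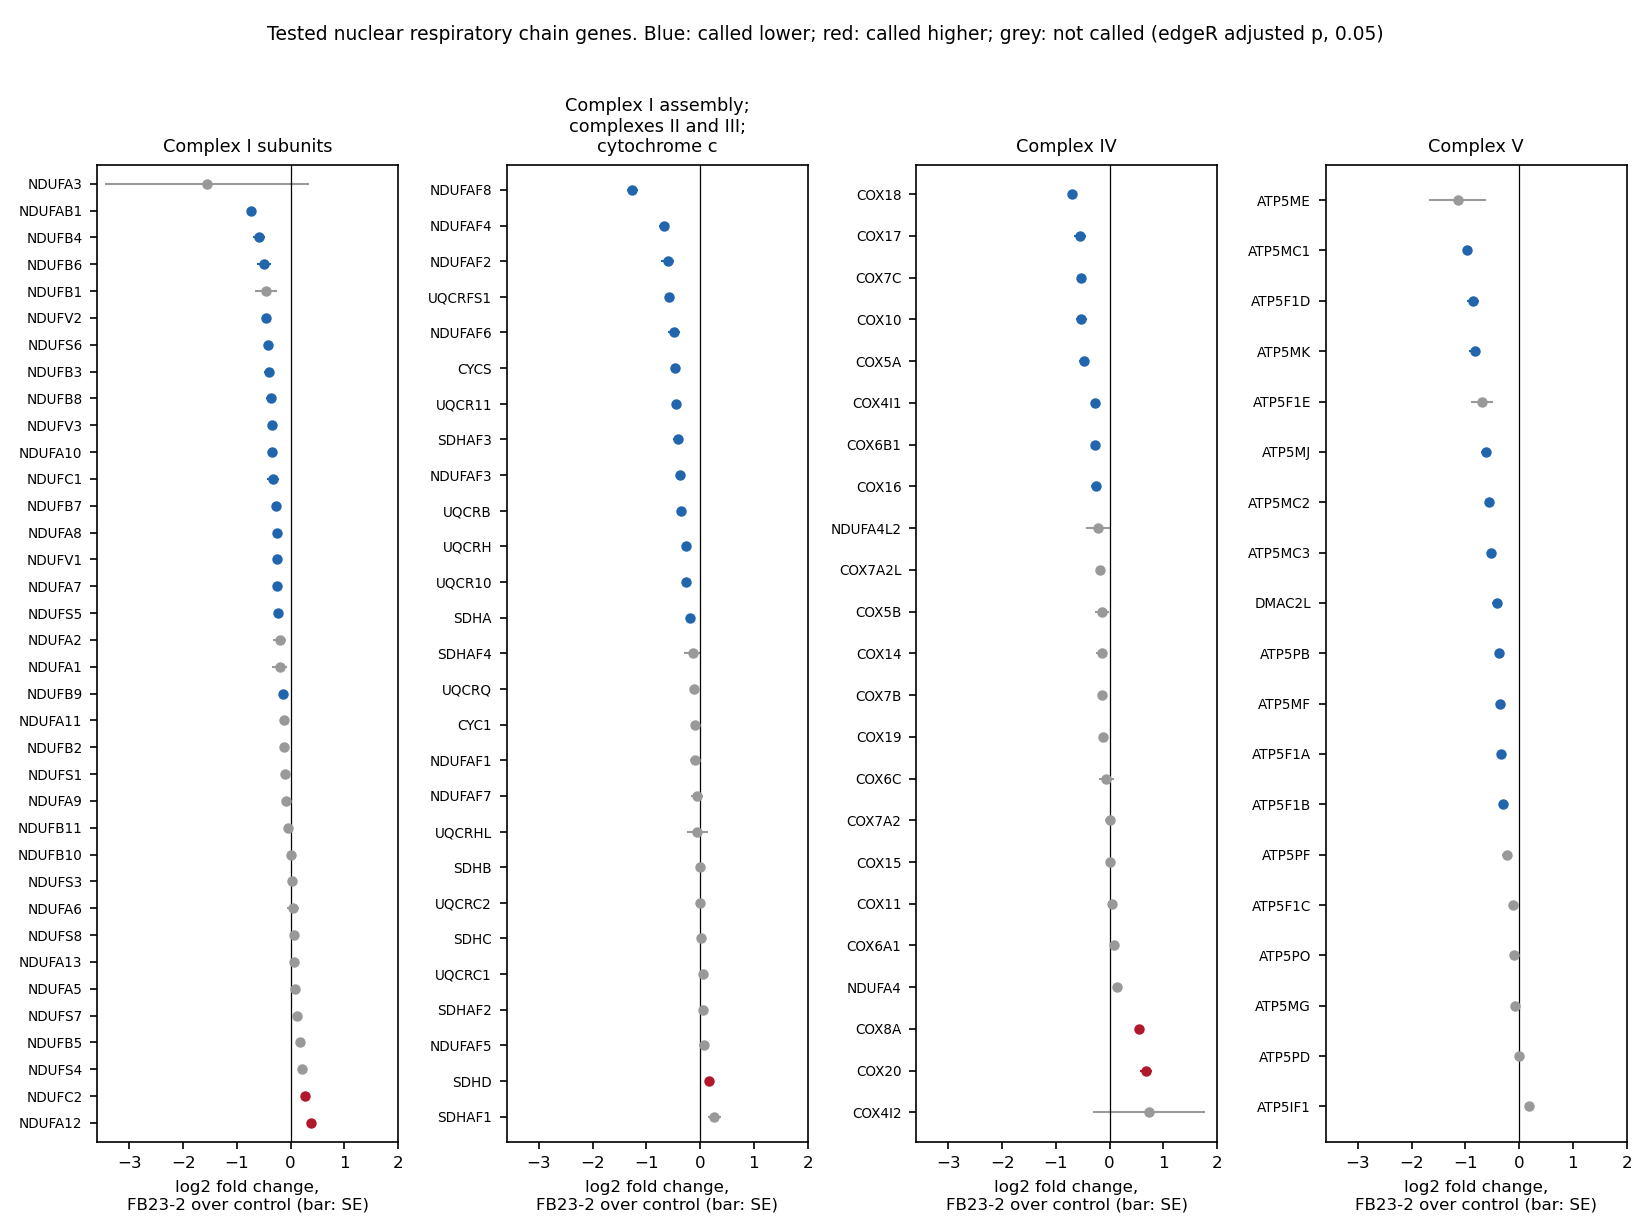
Log2 fold change (FB23-2 over control, x axis) of the tested members, all but 1 of the 106, grouped by complex and ordered within a panel, with bars for the standard error and colour for the call. Blue points (48) outnumber red ones (5) in total, and complex V has no red point.

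Complex V, the ATP synthase, had the highest share of lower calls among the complexes. Of its 17 tested subunits 10 fell (58.8%) and 0 rose, beside 20.3% and 21.8% of all tested genes. All 17 had a negative log2 fold change, with a median of -0.37. Their summed level was 2503 and 2345 CPM with FB23-2 against 3175 and 3013 CPM in control, a difference of -21.7% in the mean.

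The c ring is the rotor that turns as protons pass, and its identical subunits are encoded by ATP5MC1, ATP5MC2 and ATP5MC3, which differ in the targeting peptide that is cut off on import. All of these genes fell. ATP5MC1 stood at 35.0 and 34.4 CPM with FB23-2 and at 69.5 and 66.6 CPM in control, a log2 fold change of -0.97 ± 0.06 (SE; edgeR adjusted p = 4.16e-06). Both treated libraries lay close together and well below control, with a fitted ratio of 0.511. ATP5MC2 had 90.6 and 83.8 CPM with FB23-2 and 137 and 122 CPM in control (log2 fold change -0.56 ± 0.07, edgeR adjusted p = 0.000131). ATP5MC3 had 109 and 99.5 CPM against 161 and 140 CPM (-0.52 ± 0.08, edgeR adjusted p = 0.00149). The groups did not overlap for any of these genes, although the control libraries were further apart for ATP5MC2 and ATP5MC3 than for ATP5MC1. Per kilobase of merged exons, ATP5MC1 supplied 31.4% and 33.2% of the summed c ring level in control and 25.6% and 27.0% with FB23-2. ATP5MC2 supplied 40.5% and 39.8% in control and 43.5% and 43.0% with FB23-2, and ATP5MC3 supplied the remainder.

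In the catalytic head, ATP5F1A and ATP5F1B encode the alternating alpha and beta subunits that bind nucleotide and make ATP. They had the highest CPM of all members in each library. ATP5F1B stood at 722 and 693 CPM with FB23-2 and 879 and 862 CPM in control (log2 fold change -0.30 ± 0.04, edgeR adjusted p = 0.000175). ATP5F1A stood at 508 and 477 CPM against 621 and 612 CPM (-0.33 ± 0.04, edgeR adjusted p = 0.000208). Both genes were lower in each treated library than in each control library. ATP5F1D, the delta subunit of the central stalk, had 23.2 and 18.2 CPM with FB23-2 and 38.4 and 37.2 CPM in control (-0.86 ± 0.11, edgeR adjusted p = 0.00022). ATP5F1C, the gamma shaft, was not called at -0.12 ± 0.05 (edgeR adjusted p = 0.0698). ATP5F1E, the epsilon subunit, was not called either: its control libraries, at 143 and 106 CPM, were far apart, and its treated libraries were at 81.7 and 70.9 CPM (edgeR adjusted p = 0.0894).

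Small membrane subunits of the synthase, some of which hold its dimers together at the cristae, contributed 3 further lower calls of 5 tested. ATP5MK, listed as ATP5MD in GENCODE 29, had 46.1 and 39.1 CPM with FB23-2 and 83.4 and 69.6 CPM in control (log2 fold change -0.83 ± 0.11, edgeR adjusted p = 0.00159). ATP5MJ, listed there as ATP5MPL, fell by 0.62 on the log2 scale and ATP5MF by 0.35. ATP5ME had a lower mean but no call: the treated libraries held 18.4 and 17.1 CPM, but control held 54.7 and 26.2 CPM, so that its SE was 0.53 and its edgeR adjusted p was 0.242. It also shares 61.6% of its exon bases with MYL5 on the opposite strand, which held 2.68 to 9.29 CPM. In the peripheral stalk, which keeps the head from turning, ATP5PB fell by 0.37 and ATP5PF, ATP5PO and ATP5PD were not called, ATP5PD being level at 68.8 and 67.5 CPM against 69.9 and 67.5 CPM. ATP5MGL and the read-through ATP5MF-PTCD1 reached at most 0.0261 and 0.261 CPM and were not tested. DMAC2L, named ATP5S (coupling factor B) in GENCODE 29 and counted here with the assembly factors, fell by 0.42 on the log2 scale (edgeR adjusted p = 0.00197). It shares 14.2% of its exon bases with CDKL1 on the opposite strand.

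ATP5IF1 encodes the inhibitor that blocks the synthase from running backwards. It was 102 and 95.3 CPM with FB23-2 and 94.0 and 81.2 CPM in control, so that its groups did not overlap but came close, and it was the 1 tested complex V gene with a positive log2 fold change (0.18 ± 0.07). The test did not call it (edgeR adjusted p = 0.0797). It was called in 4 of 10 alternative fits, with adjusted p values from 0.0182 to 0.503 over all of them.

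**Figure D2:**
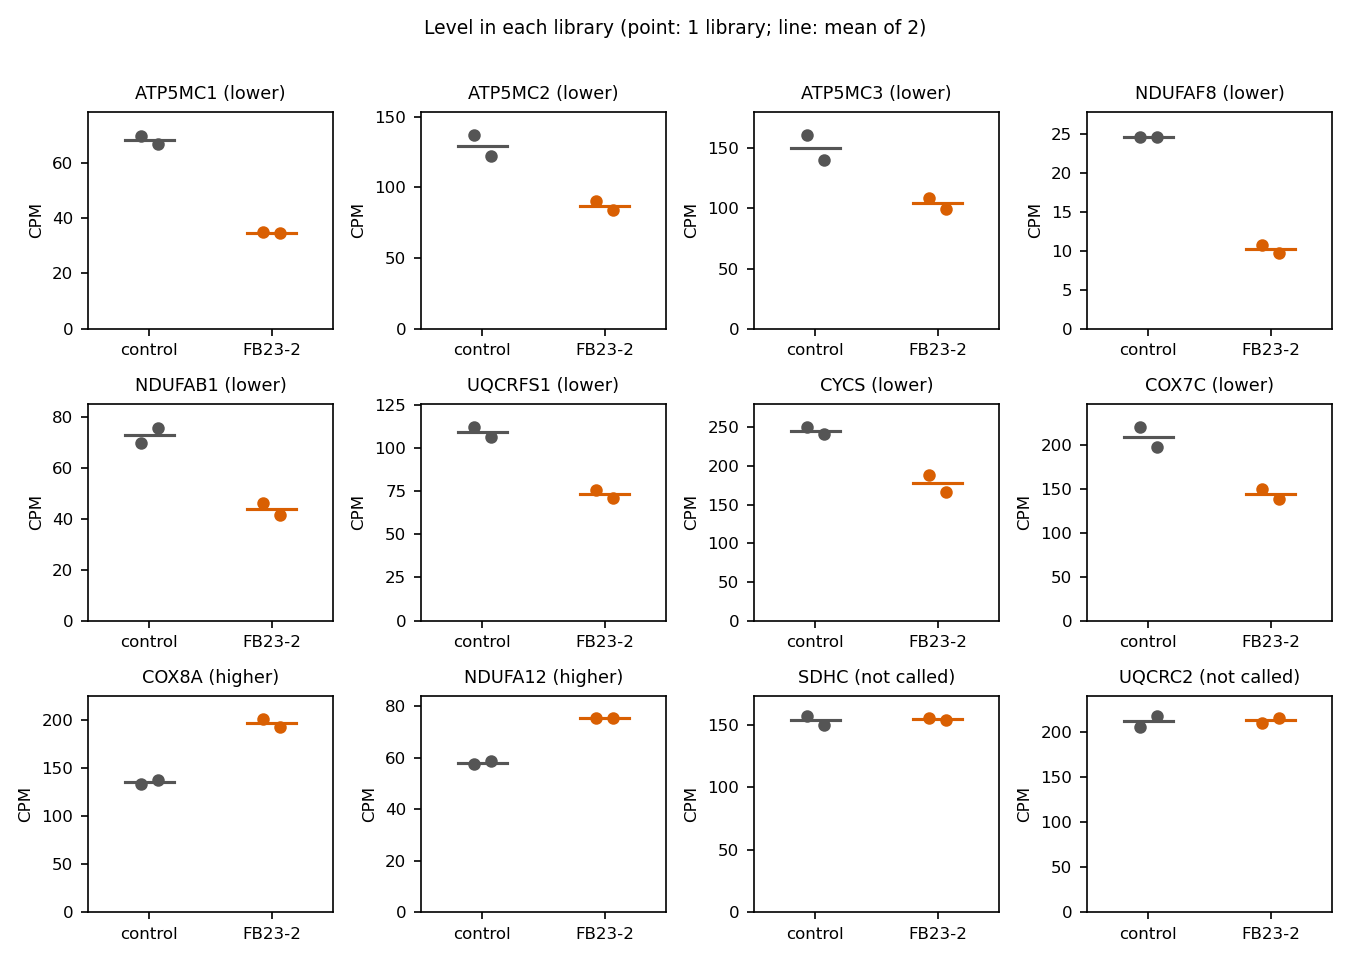
Level in CPM (y axis, from 0) of 12 members in each library, with 1 point per library and a line at the mean of the 2 libraries of a group. The c ring genes, NDUFAF8, NDUFAB1, UQCRFS1, CYCS and COX7C sit lower with FB23-2, COX8A and NDUFA12 sit higher, and the points of SDHC and UQCRC2 overlap.

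Complex I, which oxidises NADH, is the largest of the complexes. Of its 37 subunits 16 fell and 2 rose, with a median log2 fold change of -0.20. By part, of the 7 nuclear core subunits, which carry the flavin and iron-sulphur clusters of electron transfer, 2 fell, while of the 30 supernumerary subunits, which surround that core, 14 fell and 2 rose. Lower calls thus made up 28.6% of the core and 46.7% of the supernumerary subunits, against 20.3% of all tested genes. Higher calls made up 6.67% of the supernumerary subunits, against 21.8% of all tested genes. The difference between these parts was not tested.

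The core subunits that fell are neighbours at the NADH-binding tip. NDUFV1, which holds the flavin, had 140 and 134 CPM with FB23-2 and 160 and 168 CPM in control (log2 fold change -0.26 ± 0.05, edgeR adjusted p = 0.00206). NDUFV2, which holds an adjoining cluster, had 86.7 and 81.2 CPM against 117 and 113 CPM (-0.45 ± 0.05, edgeR adjusted p = 0.000144). Treated and control libraries were apart for both. Of the rest of the core, NDUFS1, NDUFS3, NDUFS7 and NDUFS8 had log2 fold changes between -0.10 and 0.11 and were not called.

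Among supernumerary subunits, NDUFAB1 had the largest called decrease. It is the mitochondrial acyl carrier protein, which serves fatty acid and iron-sulphur cluster synthesis as well as complex I. Its level was 46.2 and 41.6 CPM with FB23-2 and 70.0 and 75.8 CPM in control (log2 fold change -0.73 ± 0.07, edgeR adjusted p = 4.68e-05). NDUFB4 and NDUFB6, parts of the membrane arm, followed with log2 fold changes of -0.59 ± 0.11 and -0.50 ± 0.13. NDUFB4 had 98.0 and 95.8 CPM with FB23-2 and 162 and 130 CPM in control. Leaving out either treated library ended its call (edgeR adjusted p of 0.123 and 0.147, the range over 10 alternatives being 1.65e-09 to 0.147). NDUFB6 lost its call without control replicate 1, with an edgeR adjusted p of 0.069 (range over the alternatives 0.000285 to 0.069).

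The other supernumerary subunits that fell did so by 0.14 (NDUFB9) to 0.43 (NDUFS6). Besides NDUFS6 these were NDUFB3, NDUFV3 and NDUFA10, which like it kept their calls under every alternative fit, and NDUFA7, NDUFA8, NDUFB7, NDUFB8, NDUFB9, NDUFC1 and NDUFS5, each of which lost its call under at least 1. NDUFB8 also shares 33.8% of its exon bases with a read-through gene on the same strand, which stood at 16.0 and 20.6 CPM with FB23-2 and 55.0 and 29.6 CPM in control (log2 fold change -1.17), against 46.9 to 67.7 CPM for NDUFB8 itself. Of the 14 that were not called, NDUFS4, NDUFB5 and NDUFA5 had the highest log2 fold changes, at 0.21 ± 0.08, 0.17 ± 0.07 and 0.09 ± 0.05, and NDUFB10 was level at 78.0 and 71.3 CPM against 78.7 and 71.1 CPM.

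NDUFA12 and NDUFC2 went the other way. NDUFA12, a matrix-arm subunit that takes the place of the assembly factor NDUFAF2 late in assembly, stood at 75.5 and 75.3 CPM with FB23-2 and at 57.5 and 58.5 CPM in control (log2 fold change 0.38 ± 0.05, edgeR adjusted p = 0.000479). NDUFC2, in the membrane arm, had 96.8 and 98.2 CPM against 80.9 and 80.8 CPM (0.27 ± 0.05, edgeR adjusted p = 0.00189). In both genes the replicates lay close together and the groups lay apart by many times that spread. A read-through with KCTD14 shares 16.2% of the exon bases of NDUFC2 and held 31 counts in 1 treated library and 0 elsewhere.

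NDUFA3 had too few counts and too much spread for any statement. Its counts were 11 and 49 with FB23-2 and 129 and 11 in control, giving a log2 fold change of -1.55 with an SE of 1.90. Pseudogene rows named for it held 14.0% as many counts.

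The complex I assembly factors fell more often than not. Of 8 tested, 5 were called lower (62.5%) and 0 higher, beside 20.3% and 21.8% of all tested genes. Their median log2 fold change was -0.42. NDUFAF8, which works with NDUFAF5 on the hydroxylation of NDUFS7, had the largest called decrease of any member: 10.8 and 9.68 CPM with FB23-2 against 24.6 CPM in each control library (-1.26 ± 0.10, edgeR adjusted p = 1.68e-05). NDUFAF4, which acts with NDUFAF3 early in the joining of modules, stood at 21.3 and 19.3 CPM against 30.5 and 33.7 CPM (-0.67 ± 0.09, edgeR adjusted p = 0.000406). NDUFAF2, the partner that NDUFA12 replaces, stood at 11.5 and 11.4 CPM against 16.1 and 18.4 CPM (-0.60 ± 0.12, edgeR adjusted p = 0.00242). These 3 genes were lower in both treated libraries than in either control library. NDUFAF6 and NDUFAF3 fell by 0.48 and 0.37, and NDUFAF1, NDUFAF5 and NDUFAF7 were not called, NDUFAF5 being at 21.3 and 21.4 CPM with FB23-2 and 21.1 and 19.8 CPM in control. NDUFAF3 shares 21.6% of its exon bases with DALRD3 on the opposite strand, whose log2 fold change was 0.43.

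Complex II, succinate dehydrogenase, has 4 subunits, is wholly nuclear-encoded, pumps no protons and also works in the tricarboxylic acid cycle. Its summed level barely differed, at 465 and 455 CPM with FB23-2 and 466 and 462 CPM in control, and the groups overlapped. SDHB, the iron-sulphur subunit, had 79.8 and 82.6 CPM against 85.3 and 78.1 CPM (log2 fold change -0.01 ± 0.06). SDHC, a membrane anchor, had 155 and 154 CPM against 157 and 150 CPM (0.01 ± 0.05). Neither was called (edgeR adjusted p = 0.949 and 0.922), and in both genes the control libraries lay on either side of the treated ones.

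The other subunits of complex II were called in opposite directions and by small amounts. SDHA, the flavoprotein, was 119 and 108 CPM with FB23-2 and 127 and 131 CPM in control (log2 fold change -0.19 ± 0.06, edgeR adjusted p = 0.0258), and rows named as its pseudogenes held 25.2% as many counts. SDHD, the other anchor, was 112 and 111 CPM against 96.7 and 103 CPM (0.16 ± 0.05, edgeR adjusted p = 0.0324). Neither call was firm. That of SDHA ended in 6 of 10 alternative fits, with adjusted p values from 0.0082 to 0.18 over all of them, and that of SDHD in 7, from 0.0105 to 0.283. Of the assembly factors, SDHAF3, which helps to insert the iron-sulphur clusters of SDHB, fell from 27.4 and 28.8 CPM in control to 20.5 and 21.6 CPM (-0.42 ± 0.09, edgeR adjusted p = 0.00349), and SDHAF1, SDHAF2 and SDHAF4 were not called.

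**Figure D3:**
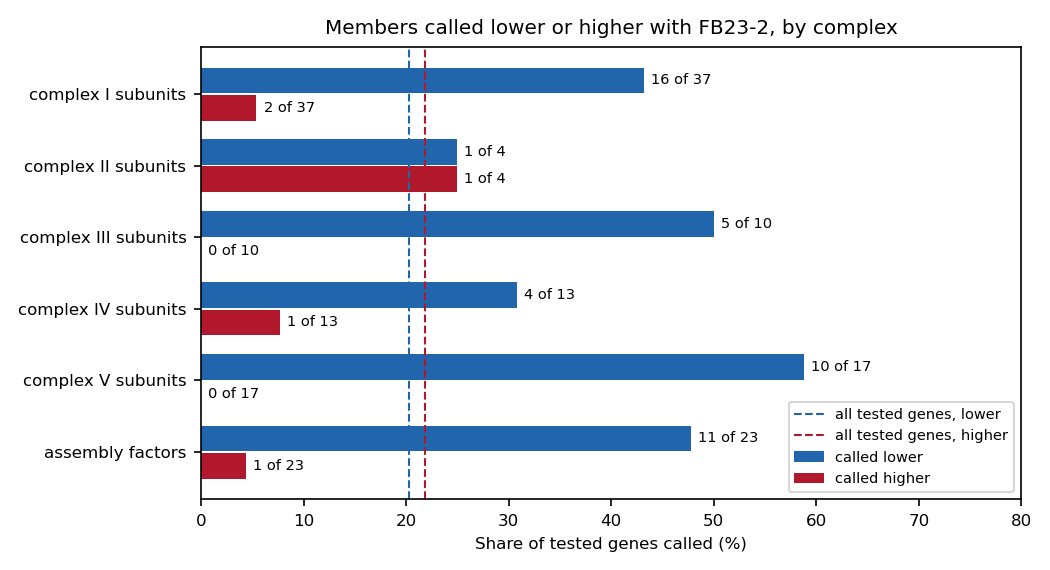
Share of tested members called lower (blue) or higher (red) with FB23-2, by complex for subunits and over all complexes for assembly factors, with the number called beside each bar; dashed lines mark the shares of all 18817 tested genes, 20.3% lower and 21.8% higher. Lower calls exceed the dashed blue line most in complex V (10 of 17) and least in complex II (1 of 4).

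Complex III passes electrons from ubiquinol to cytochrome c. Of its 10 tested genes 5 fell and 0 rose, and the summed level was 1057 and 1028 CPM with FB23-2 and 1189 and 1169 CPM in control. UQCRFS1, the Rieske iron-sulphur protein, is a catalytic subunit added late in assembly. It had 75.3 and 70.8 CPM with FB23-2 and 112 and 106 CPM in control (log2 fold change -0.58 ± 0.06, edgeR adjusted p = 3.97e-05). CYC1, the cytochrome c1 haem protein and the other nuclear catalytic subunit, had 98.6 and 86.7 CPM against 100 and 99.0 CPM and was not called (-0.10 ± 0.06, edgeR adjusted p = 0.245). Its value rested on the treated libraries: without FB23-2 replicate 1 it was -0.22 and called (edgeR adjusted p = 0.0278), and without replicate 2 it was -0.01 (range over 10 alternatives 0.0278 to 0.945).

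Of the small subunits, UQCR11, UQCRB, UQCRH and UQCR10 fell, by 0.44, 0.36, 0.27 and 0.26 on the log2 scale, and UQCRQ was not called (-0.12 ± 0.06, edgeR adjusted p = 0.143). UQCRB, for example, had 109 CPM in each treated library and 144 and 135 CPM in control (edgeR adjusted p = 0.00032). The call of UQCR10 ended in 4 of 10 alternative fits (adjusted p over all 10 from 0.00371 to 0.133). The large core proteins UQCRC1 and UQCRC2, which give the complex its matrix domain, were not called, with log2 fold changes of 0.05 ± 0.04 and 0.00 ± 0.04. UQCRC2 stood at 210 and 216 CPM with FB23-2 and 206 and 218 CPM in control, with overlapping groups. UQCRHL is a near-identical copy of UQCRH at 4.18 to 4.60 CPM, and counts of the pair could be divided between them by the alignment. Per kilobase, control held 134 ± 1.20 CPM (SD, n = 2) of UQCRH and 2.03 ± 0.109 CPM of UQCRHL.

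CYCS, cytochrome c, carries electrons from complex III to complex IV and triggers the caspase cascade when it leaves mitochondria. It fell from 251 and 241 CPM in control to 188 and 167 CPM with FB23-2 (log2 fold change -0.47 ± 0.06, edgeR adjusted p = 0.000158), and both treated libraries lay below both control libraries.

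Complex IV, cytochrome c oxidase, hands electrons to oxygen. Of its 13 tested nuclear subunits 4 fell (30.8%) and 1 rose (7.69%), beside 20.3% and 21.8% of all tested genes. The summed levels overlapped, at 1539 and 1417 CPM with FB23-2 and 1637 and 1481 CPM in control. COX7C had 150 and 138 CPM with FB23-2 and 220 and 197 CPM in control (log2 fold change -0.53 ± 0.06, edgeR adjusted p = 0.000221). COX5A, which binds with COX4 early in assembly, had 64.6 and 55.0 CPM against 88.9 and 79.2 CPM (-0.48 ± 0.09, edgeR adjusted p = 0.00311). COX4I1, the COX4 form of most tissues, had 197 and 183 CPM against 242 and 217 CPM (-0.27 ± 0.06, edgeR adjusted p = 0.00726). Its call ended without FB23-2 replicate 2 and without control replicate 1, with an edgeR adjusted p of 0.0674 and 0.0501 (range over 10 alternatives 0.000324 to 0.0674). COX6B1, which faces the cytochrome c binding site, fell by 0.27 (edgeR adjusted p = 0.0311), and 4 of 10 alternatives ended that call (0.00168 to 0.287).

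COX8A was the exception in this complex. This smallest subunit, the form of most tissues, stood at 201 and 192 CPM with FB23-2 and at 133 and 137 CPM in control, a log2 fold change of 0.54 ± 0.05 (edgeR adjusted p = 1.84e-05), and the groups lay well apart. It shares 34.5% of its exon bases with an annotated gene whose own row was at 0 in every library. Per kilobase it held 387 ± 13.0 CPM (SD, n = 2) with FB23-2 and 266 ± 5.46 CPM in control, which made it and ATP5F1B the highest members by level per length, ATP5F1B at 305 ± 8.68 and 375 ± 5.30 CPM. NDUFS5 of complex I came next at 297 ± 0.806 and 349 ± 5.92 CPM, and COX6A1 after it at 177 ± 4.03 and 167 ± 4.39 CPM. The order of these levels changed with treatment. In control ATP5F1B was above NDUFS5 and NDUFS5 above COX8A by more than the spread of replicates, whereas with FB23-2 COX8A was highest and ATP5F1B and NDUFS5 lay within 1 SD of each other. Lengths are of all exons merged, so a gene with long, rarely used exons has its level per kilobase understated.

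Several complex IV subunits exist as tissue-specific pairs, and the line used the forms of most tissues. Heart and muscle forms were near the detection limit: COX6A2 was at 0 in all libraries, and COX7A1 was at 0.131 and 0.0864 CPM with FB23-2 and 0 and 0.0871 CPM in control. Their counterparts COX6A1 and COX7A2 stood at 220 to 241 CPM and 113 to 132 CPM and were not called. COX6A1 was called higher in 2 of 10 alternatives (adjusted p 0.0272 to 0.595). The testis forms COX6B2, COX7B2 and COX8C reached at most 0.498 CPM, COX7B2 being at 0 throughout, and none of these passed the filter. COX7B had 73.4 and 73.9 CPM against 83.1 and 79.1 CPM and was not called (log2 fold change -0.14 ± 0.05, edgeR adjusted p = 0.0688), though 1 of 10 alternatives called it (0.014 to 0.234). COX4I2, the lung and low-oxygen form, had 0.471 and 0.202 CPM with FB23-2 and 0.498 and 0 CPM in control, too few counts to compare. NDUFA4, first assigned to complex I and now placed in complex IV, had 146 and 131 CPM against 130 and 122 CPM (0.14 ± 0.06), while its low-oxygen form NDUFA4L2 lay between 2.59 and 3.42 CPM. Neither was called (edgeR adjusted p = 0.101 and 0.498), but NDUFA4 was called higher in 3 of 10 alternatives (adjusted p 0.0242 to 0.707 over all of them), with a value of 0.03 without FB23-2 replicate 1 and 0.22 without replicate 2. COX7A2L, a supercomplex factor that links complexes III and IV, was not called either at -0.17 ± 0.08 (edgeR adjusted p = 0.111), and 2 of 10 alternatives called it (0.0324 to 0.484).

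The complex IV assembly factors among the members gave 4 lower calls and 1 higher of 10 tested, a count that includes the supercomplex factor COX7A2L. That is 40.0% lower and 10.0% higher, beside 20.3% and 21.8% of all tested genes. COX18, which inserts the tail of the mitochondrially encoded subunit MT-CO2 into the membrane, had 21.8 and 22.9 CPM with FB23-2 and 34.8 and 37.6 CPM in control (log2 fold change -0.70 ± 0.08, edgeR adjusted p = 0.000137). COX17, a copper chaperone, had 23.2 and 22.0 CPM against 37.2 and 29.8 CPM (-0.55 ± 0.11, edgeR adjusted p = 0.00317). COX10, which makes haem O on the way to the haem A of the enzyme, had 18.6 and 16.0 CPM against 24.7 and 25.2 CPM (-0.53 ± 0.10, edgeR adjusted p = 0.00267). Groups were apart in these 3 genes, with COX17 the most variable in control, and 17.6% of the exon bases of COX17 are shared with POPDC2. COX16 fell by 0.25, a call that 6 of 10 alternatives ended (adjusted p 0.00918 to 0.239). COX15, the next enzyme after COX10 in haem A synthesis, was level at 85.9 and 79.4 CPM against 86.1 and 78.9 CPM, and COX11, COX14 and COX19 were not called.

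COX20, a chaperone of MT-CO2, had the largest called increase of any member, from 12.6 and 11.3 CPM in control to 19.6 and 18.2 CPM (log2 fold change 0.68 ± 0.11, edgeR adjusted p = 0.00108). That value has a limit: 72.0% of its exon bases are shared with HNRNPU on the opposite strand, a gene at 709 CPM in each treated library and 939 and 957 CPM in control, and the strand setting of the counting is not given in the sources used here. The fitted log2 fold change of HNRNPU was -0.42, opposite in sign to that of COX20. Rows named as pseudogenes of COX20 held 5.49% as many counts as COX20.

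Such overlaps touch many members. Exon bases are shared with another annotated gene in 61 of the 114, and in 40 of them over more than 10% of the length. Over the 49 tested members that share none, 24 were lower and 1 higher, with a median log2 fold change of -0.19. That 1 is NDUFA12. The rows of 208 pseudogenes named for 51 members held a median of 0.0399% of the parent's counts, and more than 5% in SDHA, NDUFA3 and COX20 only.

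Over all complexes, 11 of 23 assembly factors among the members (47.8%), COX7A2L included, fell and 1 rose. Of the subunits, 36 of 81 tested (44.4%) fell and 4 rose. The median log2 fold changes were -0.17 and -0.20. Members have short transcripts, with a median of 1662.5 bases against 3054 for tested genes. Among the 35 shortest tested members (496 to 1163 bases) 17 fell and 2 rose, among the 35 of middle length 15 and 1, and among the 36 longest (2406 to 13566 bases) 16 and 2. Medians in these groups were -0.25, -0.21 and -0.14. Within groups, 75 members were higher in control replicate 1 than in control replicate 2 and 83 higher in FB23-2 replicate 1 than in replicate 2, by medians of 0.06 and 0.07 on the log2 scale, so that shifts shared by most members, smaller than that between treatments, were also seen between replicates.

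Assembly factors with other names were taken from a list of the pathway. Of 48 tested 20 fell and 4 rose, with a median log2 fold change of -0.28. The shares over all tested genes were 20.3% lower and 21.8% higher. By complex, 5 of 13 fell and 0 rose for complex I, 4 and 1 of 9 for complex III, 10 and 1 of 21 for complex IV, and 1 and 2 of 5 for complex V. For complex I, TMEM186 and DMAC1, which help to build the membrane arm, both fell by 0.86. For complex III, BCS1L, which inserts the Rieske protein encoded by UQCRFS1, had 16.1 and 14.4 CPM with FB23-2 and 24.0 and 24.5 CPM in control (-0.67 ± 0.10, edgeR adjusted p = 0.000554), and UQCC4 fell by 0.82, whereas UQCC2 rose by 0.41. For complex IV, the copper-handling factors SCO1 and COA6 fell by 0.80 and 0.99, and LRPPRC, which stabilises mitochondrial mRNAs, fell from 170 and 185 CPM to 112 and 113 CPM (-0.66 ± 0.05, edgeR adjusted p = 1.18e-05). HIGD1A rose by 0.19. For complex V, ATPAF1, the chaperone of the beta subunit ATP5F1B, rose from 119 and 112 CPM to 152 CPM in each treated library (0.40 ± 0.05, edgeR adjusted p = 0.000147), TMEM242 rose by 0.39, and ATPAF2, the chaperone of the alpha subunit, fell by 0.28.

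The 13 subunits encoded in mitochondrial DNA did not move as a block. Of these 6 fell and 4 rose, where 20.3% of all tested genes were called lower and 21.8% higher. The summed level of the 13 was 47826 to 48392 CPM with FB23-2 and 46128 to 48620 CPM in control. Both subunits of complex V fell, MT-ATP6 by 0.43 and MT-ATP8 by 0.63, as did MT-CYB of complex III, from 2957 and 2766 CPM to 1730 and 1690 CPM (log2 fold change -0.74 ± 0.04, edgeR adjusted p = 1.51e-06). In complex IV, MT-CO1 rose from 13058 and 13245 CPM to 16668 and 16967 CPM (0.35 ± 0.03, edgeR adjusted p = 1.39e-05) while MT-CO3 fell by 0.64. In complex I, MT-ND4, MT-ND5 and MT-ND6 rose and MT-ND1 and MT-ND2 fell. Several of these genes lie next to or across from each other on transcripts of the whole genome, and the counting of such reads is not given in the sources used here.

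**Figure D4:**
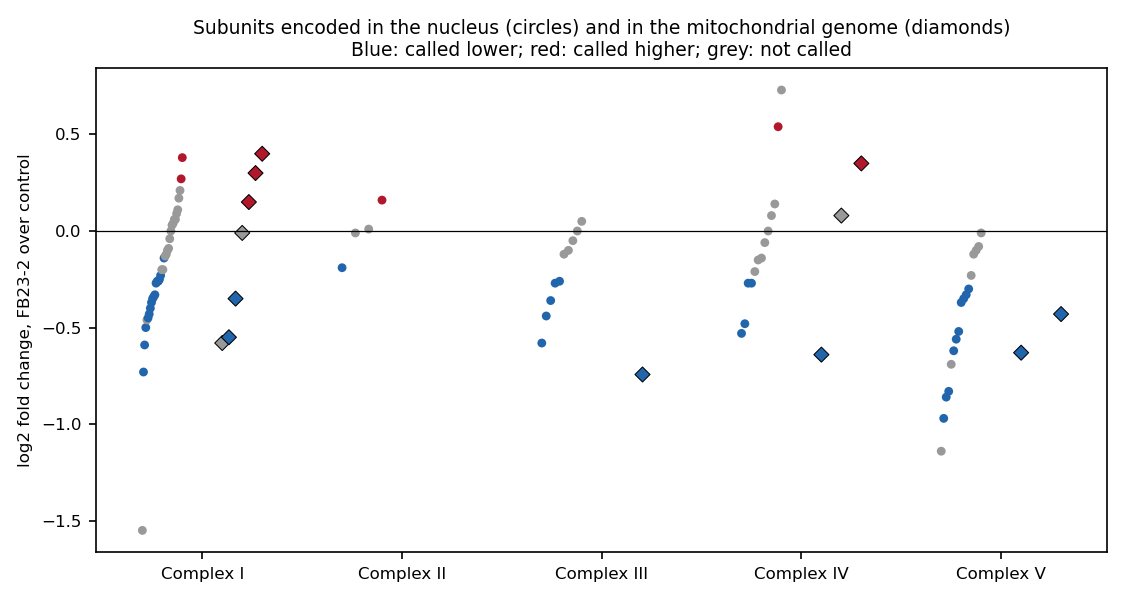
Log2 fold change (y axis) of tested nuclear subunits (circles, all but 1) and of the 13 subunits encoded in mitochondrial DNA (diamonds), by complex, coloured by call. Nuclear complex V circles all lie below 0 with both mitochondrial diamonds, whereas the diamonds of complexes I and IV lie on both sides.

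Coactivators and transcription factors known to control respiratory genes were mostly lower. Of 14 tested 10 fell and 2 rose, where 20.3% of all tested genes were called lower and 21.8% higher. Lower calls were also frequent outside this list: of the 14 T cell markers 9 fell and 1 rose. PPRC1 and PPARGC1B, coactivators of the PGC-1 family, had the largest decreases after MYC: PPRC1 went from 72.4 and 74.7 CPM to 29.9 and 25.6 CPM (log2 fold change -1.40 ± 0.08, edgeR adjusted p = 2.13e-06) and PPARGC1B from 27.4 and 25.2 CPM to 9.15 and 10.5 CPM (-1.42 ± 0.11, edgeR adjusted p = 1.19e-05). MYC itself went from 367 and 365 CPM to 66.5 and 58.5 CPM (-2.55 ± 0.06, edgeR adjusted p = 3.75e-08). The factors whose motifs are printed above moved less: NRF1 fell by 0.40, GABPA by 0.22 and its partner GABPB1 by 0.53, YY1 fell by 0.15, and CREB1, which reads the response element, rose by 0.19. TFB2M and TFAM, which start transcription of mitochondrial DNA, fell by 0.93 and 0.38. ESRRG rose by 0.95 from a low level of 1.95 and 1.51 CPM, and PPARGC1A, at 0.131 to 0.317 CPM, was too low to test. Whether any of these bears on the members was not tested.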

How the data were processed

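Whole-number counts per gene were deposited by the authors as 1 table for the 4 libraries, made from 1 µg of total RNA with an Illumina TruSeq kit per the labels' protocols. The submitters' processing notes name HISAT2 2.2.0, StringTie and hg38. How reads were counted, on which annotation and with which strand setting is not given in the sources used here. Gene types, exons and coordinates came from GENCODE 29, in which all 114 members were found, and symbols from a separate list of gene names. Low counts were filtered with filterByExpr (edgeR 4.0.16, minimum count 10), and libraries were scaled by TMM and compared over all 18817 kept genes with the quasi-likelihood test in R 4.3.3, with Benjamini-Hochberg adjustment and a threshold of 0.05. The fit was tested on simulated counts. CPM values are TMM-scaled. The biological coefficient of variation was 10.5%. Replicates differed by more than sampling noise (chi-square per degree of freedom 6.69 and 7.48 within groups, 74.6 to 82.3 between), so no library was a copy. Floors cover counting error only. Each SE is from the fit and includes the spread between replicates, and each SD is that of 2 libraries. P values rest on the spread of 2 libraries per group, with the variance of each gene drawn toward a trend over all tested genes. Alternatives were RLE scaling, library size alone, no filter, DESeq2 1.42.0, a replicate block, removal of GC and length trends, leaving out each library, and leaving out members with shared exon bases. Members, lists and motifs were chosen with earlier results of these data known. Genes were named by rule: in each complex and role the called members with the 3 largest changes in each direction, the tissue-form groups, SDHA to SDHD, CYC1, CYCS, ATP5IF1 and the 3 most abundant. Other names were picked after their values were seen. For 1 tested member the value is not reported here.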

Additional observations from a re-analysis of the deposited data

How the results depend on the processing

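The count of lower members was 41 to 53 under the alternative fits that kept all libraries, against 48. Under those fits at most 21.6% of all tested genes were called lower (GC and length trends removed), against 20.3%. The lowest share was 8.77% (DESeq2). DESeq2 and the fit with no filter on low counts, however, took shares over more genes than the 18817 kept by the filter. Their shares of lower calls therefore cannot be set beside 20.3%. The count of higher members went from 5 to 10 with library size alone and to 9 with GC and length trends removed. Higher calls over all tested genes were 24.6% and 20.3% there, against 21.8%. The median log2 fold change ran from -0.29 to -0.14 without 1 library, was -0.15 with library size alone and -0.14 with GC and length trends removed. Over the 49 tested members with no shared exon bases there was 1 higher call. The cause of these moves was not tested. In the last, fewer members were compared, and higher calls were 2.04% of the 49 against 4.72% of all tested members. Of the 53 called members 38 kept their call in all 10 fits, 34 lower and 4 higher. Over all tested genes the deviations of same-numbered libraries hardly correlated (0.062, 2 pairs). Among members, however, 75 were higher in control replicate 1 than in replicate 2, and 83 in FB23-2 replicate 1 than in replicate 2. Whether the libraries are paired was not tested. A replicate block called 53 members lower and 7 higher with a median of -0.21, beside 21.4% and 22.5% of all tested genes. Over 449 values of named members, 400 kept their direction and call, 22 lost and 13 gained a call, and 14 changed sign, all of them uncalled in both fits: COX4I2 to -0.04 without FB23-2 replicate 1 and -0.53 without control replicate 2 (leaving out 1 library gave -0.53 to 6.63); COX7A2 to -0.01 with RLE, and to -0.09 and -0.11 without those replicates (-0.11 to 0.10); CYC1 to 0.01 with GC and length trends removed; SDHB to 0.04 with library size alone, 0.00 with DESeq2, 0.07 with GC and length trends removed and 0.04 without control replicate 1 (-0.07 to 0.04); SDHC to 0.00 with RLE, -0.05 with GC and length trends removed, -0.02 without FB23-2 replicate 1 and -0.03 without control replicate 2 (-0.03 to 0.02). Where 1 library is left out, the lone sample is assumed to vary like the other group. Depth limits the comparison of COX4I2, NDUFA3 and the members that were not tested.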

Other observations

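Ubiquinone (coenzyme Q) carries electrons from complexes I and II to complex III, and its synthesis genes were not among the members. Of 14 tested genes of ubiquinone synthesis and cytochrome c maturation 5 fell and 3 rose with FB23-2, with a median log2 fold change of -0.08. Over all tested genes, 20.3% were called lower and 21.8% higher. PDSS1, which with PDSS2 makes the isoprenoid tail, had 22.6 and 20.6 CPM with FB23-2 and 36.6 and 33.3 CPM in control (-0.68 ± 0.09, edgeR adjusted p = 0.000278), and PDSS2 fell by 0.39. COQ4, which acts on the ring, fell by 0.55. Treated libraries were below control libraries in all of these genes. COQ10B, a ubiquinone-binding protein, rose from 28.0 and 24.2 CPM to 43.5 and 35.9 CPM (0.62 ± 0.11, edgeR adjusted p = 0.00239), and COQ9 and COQ5 rose by 0.32 and 0.25. HCCS, the enzyme that attaches haem to the proteins of CYCS and CYC1, was level at 24.1 and 22.6 CPM with FB23-2 and 23.2 and 22.1 CPM in control.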
